A study of Homo sapiens with 4 samples.

Results

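Lipoprotein lipase, encoded by *LPL*, and 8 genes that mature, inhibit, receive or complement it were described in Sorafenib-treated cells with and without a guide RNA against *USP22*. These are 9 of the 28278 gene symbols in the count table, and 6 of the 9 had enough counts to be tested. The members were chosen by name, and *LPL* was selected on its values, since its counts are near 0 in the libraries labelled sgUSP22. Differences between the groups are therefore given for the members as a description: no p-value is printed for them, and where a member is said to pass or miss a threshold of the fit over all genes, this describes its row and supports nothing.

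The cells were HepG2 by their label, a human liver cancer line, infected with lentiviruses that carried Cas9 and either a control sgRNA or an sgRNA to *USP22*, a deubiquitinase gene. All cells received 10 µM Sorafenib, a multikinase inhibitor used in advanced liver cancer, for 24 h, and untreated cells are not analysed here. PolyA RNA was sequenced from 2 control and 2 sgUSP22 libraries. The knockout rested on a single guide sequence in a puromycin-selected population, and nothing states that the libraries of a group came from separate cultures, so p-values measure only the spread between these samples, which may be technical.

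Library totals ranged from 62030307 to 64728272 counts. *USP22* itself was listed at 16450 and 16537 counts in the control libraries and at 20279 and 20368 in the libraries labelled sgUSP22, a log2 difference of 0.22 (SE 0.034), with an adjusted p of 0.000394 in edgeR (quasi-likelihood, Benjamini-Hochberg). The transcript was thus higher, not lower, under the knockout label. Counts measure transcript and not protein, and the paper reports the efficiency of its knockout from Western blots of the protein. Of 21 hepatocyte markers, 8 were at 0 in all 4 libraries, among them *ALB*, *APOA1*, *TTR* and *FGB*, and *AFP* and *HNF4A* did not exceed 9 counts in any library. The data therefore go against the labelled liver cell type at its defining markers, although *KRT8* and *KRT18*, which other epithelia also express, were abundant. *FOXA1*, which other epithelia express as well, was far lower than the keratins, at 764 to 1030 counts per library.

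Lipoprotein lipase is a secreted enzyme that hydrolyses triglycerides of circulating lipoproteins at the capillary wall, and fat, muscle and macrophages are its best known sources. It folds as a dimer in the endoplasmic reticulum (ER) with the help of LMF1 and of SEL1L, the partner of the ubiquitin ligase SYVN1. Outside the cell ANGPTL4 inactivates it, and LRP1 takes up lipoprotein remnants together with the bound enzyme. Adult liver cells make hepatic lipase, encoded by *LIPC*, rather than lipoprotein lipase.

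*LPL* (ENSG00000175445.17, hg38 chr8:19901717-19967259, plus strand) was listed at 586 and 651 counts in the control libraries and at 0 and 4 counts in the libraries labelled sgUSP22. In counts per 1000000, scaled by TMM factors (CPM), this was 9.61 and 10.4 against 0 and 0.0620. Both control libraries were high, both sgUSP22 libraries were at or near 0, and the groups did not overlap. The mean CPM was 10.0 ± 0.583 (SD, n = 2) in control and 0.0310 ± 0.0438 (SD, n = 2) in sgUSP22 libraries. The limit that a count of 0 allows, 3 counts, amounted to 0.0457 to 0.0492 CPM in these libraries, so the sgUSP22 mean was under that limit, which holds for counts as listed. In bulk RNA, fewer cells that make the transcript and less transcript per cell cannot be told apart.

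The summed counts, scaled to library size, gave a ratio of control to sgUSP22 of 327, with a 95% exact interval of 127 to 1200 that covers counting error only. Low values of the table pile up at multiples of 4, since in control replicate 1 a value of 4 was held by 460 genes, a value of 3 by 214 and a value of 5 by 202. One fragment may therefore have added several counts. With the listed counts divided by 4, a choice made after the data were seen, the interval widened to 58.2 to 12940. The fitted log2 fold change of *LPL* was -8.26 (SE 0.40), the 9th lowest of 15150 genes tested. It rests on the 4 counts of sgUSP22 replicate 2 and depends on the prior count, being -12.3 without that library and -7.30 without sgUSP22 replicate 1. *LPL* passed the low-count filter through the control libraries alone, and it was selected on its values, so its rank is no finding.

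Of the 9 members, *LPL* was the only one called lower, meaning an adjusted p below 0.05 with a change of 1.5-fold or more, and 0 members were called higher. Over all 15150 genes tested, 7.25% were called lower and 8.88% higher. At the adjusted p alone, 2 members were higher (*SEL1L* and *LRP1*), 2 were lower (*LPL* and *PNPLA2*) and 2 were neither (*LMF1* and *LMF2*), where 26.8% of all genes were higher and 25.8% lower. In each of the 6 tested members the CPM of the 2 groups did not overlap, as was so for 75.9% of all tested genes. The median log2 fold change of these 6 was -0.22, against 0.0009 over all genes tested. Since this contrast chose *LPL*, nothing is read from these counts. The 9 genes lie on 9 different chromosomes.

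Other genes also had many counts in control and few or none in sgUSP22 libraries. At least 100 counts in both control libraries and at most 4 in both sgUSP22 libraries were held by 3 genes (*LPL*, *EPB41L3* and *ADAM19*), and 2 genes had the reverse pattern. The limit of 4 was set at the counts of *LPL* itself, so its own place among the 3 is no finding. Among the tested genes nearest to *LPL*, by Euclidean distance of log2 CPM centred on each gene's mean over the 4 libraries, were *XAGE2* (distance 0.43) and *EPB41L3* (1.13). *XAGE2*, a cancer-testis antigen gene on chromosome X, had 1151 and 1056 control counts and 3 and 11 sgUSP22 counts. *EPB41L3*, a membrane skeleton linker gene on chromosome 18, had 339 and 322 control counts and 0 in both sgUSP22 libraries. Both lie on other chromosomes than *LPL*.

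The genes around *LPL* were measured to see whether its neighbourhood moved with it. Of 9 measured genes that start within 1 Mb, 6 were tested and 0 were called in either direction. At the adjusted p alone 1 was higher and 3 were lower. Among all tested genes 8.88% were called higher and 7.25% lower, or 26.8% and 25.8% at the adjusted p alone. The log2 fold changes of the 6 tested neighbours ran from -0.89 to 0.16. The nearest tested gene upstream, *INTS10*, a subunit gene of the Integrator complex, starts at -84.3 kb from the *LPL* start and was listed at 8085 and 7962 control counts and at 7960 and 7757 sgUSP22 counts. Its log2 fold change was -0.11 (SE 0.039), with an adjusted p of 0.0382 in edgeR (quasi-likelihood, Benjamini-Hochberg). The nearest tested gene on the other side, *ATP6V1B2*, a proton pump subunit gene, starts at 295.7 kb from the *LPL* start. It had 3208 and 3103 control counts and 3949 and 3486 sgUSP22 counts, a log2 fold change of 0.16 (SE 0.062). Its adjusted p was 0.0563 in edgeR (quasi-likelihood, Benjamini-Hochberg). Both genes thus differed by less than 1.5-fold, and INTS10 and ATP6V1B2 each crossed the adjusted p threshold under other settings. The lowest value, -0.89, belonged to *SNORA62*, a small nucleolar RNA with 34 to 68 counts per library whose name the annotation gives to copies on other chromosomes as well, so its reads may not come from this locus. The other tested neighbours lay between -0.24 (*PSD3*) and 0.16 (*ATP6V1B2*). *SLC18A1*, *LZTS1* and *LZTS1-AS1* were at 0 in all libraries.

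**Figure D1:**
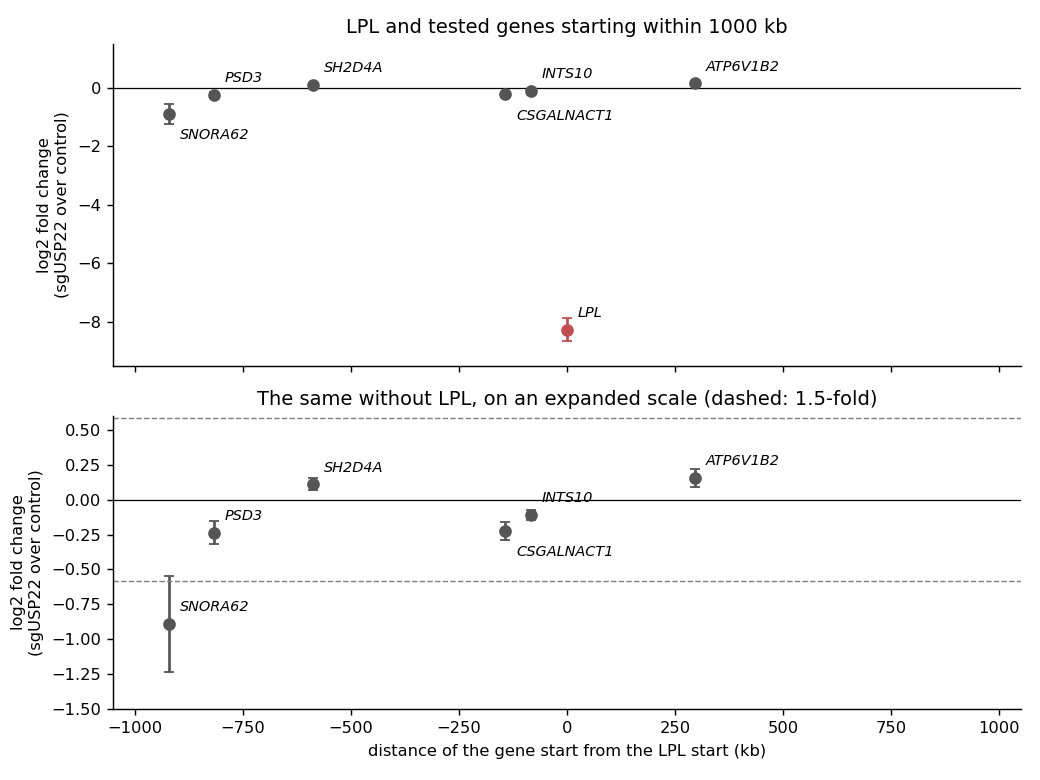
Log2 fold change (sgUSP22 over control) with its SE for *LPL* and the 6 tested genes that start within 1 Mb, by distance of the gene start from the *LPL* start in kb. The upper panel includes *LPL* at -8.26, and the lower one shows the neighbours alone, between -0.89 and 0.16, with the 1.5-fold lines dashed.

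The enzymes closest to LPL in sequence gave no signal. *LIPC*, which encodes hepatic lipase (ENSG00000166035.11, chr15:58410569-58569844, plus strand), and *LIPG*, which encodes endothelial lipase (ENSG00000101670.12, chr18:49560699-49599185, plus strand), were at 0 counts in all 4 libraries. Neither was detectable at this depth, and the limit of 3 listed counts given above is too low for them as well if 1 fragment adds several counts. Of 7 further genes of the lipase family, 5 were also at 0 in every library, and *LIPI* held 5 to 17 counts and was not tested. The remaining one, *LIPH*, which makes lysophosphatidic acid, fell from 27.0 ± 0.632 CPM to 22.5 ± 1.59 CPM (SD, n = 2), a log2 fold change of -0.26 with an adjusted p of 0.0181 in edgeR (quasi-likelihood, Benjamini-Hochberg). *LIPH* was thus the only tested relative of *LPL*, and it was not called at 1.5-fold, where all tested genes gave 8.88% called higher and 7.25% lower. Since *LPL* was selected on its values, nothing is read from its contrast with *LIPH*.

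The maturation factors of LPL stayed expressed in the libraries labelled sgUSP22. *LMF1*, an ER membrane protein needed for folding of LPL and its relatives (ENSG00000103227.19, chr16:853634-981318, minus strand), had 195 and 207 control counts and 174 and 132 sgUSP22 counts. Its CPM was 3.26 ± 0.0849 against 2.35 ± 0.426 (SD, n = 2), and the sgUSP22 libraries differed more from each other than the control libraries did. The groups did not overlap, but the log2 fold change of -0.47 (SE 0.20) was not past the adjusted p threshold. It moved from -0.68, then past both thresholds, without sgUSP22 replicate 1 to -0.30 without sgUSP22 replicate 2. *LMF1* shares 2.12% of its exonic bases with *CEROX1* on its own strand and 2.68% with *LMF1-AS1* on the other, and with no strand setting stated the reads of these stretches cannot be told apart.

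*LMF2*, the less studied paralog of *LMF1* (ENSG00000100258.18, chr22:50502949-50507702, minus strand), was listed at 3869 and 4071 control counts and 3931 and 3978 sgUSP22 counts. Its CPM was 64.3 ± 1.28 in control and 60.7 ± 1.27 in sgUSP22 libraries (SD, n = 2). The log2 fold change of -0.084 (SE 0.047) was not past the threshold.

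*SEL1L* (ENSG00000071537.14, chr14:81471547-81533853, minus strand) had 9164 and 9536 control counts and 14071 and 14135 sgUSP22 counts. Both sgUSP22 libraries lay well above both control libraries. Its CPM was 151.6 ± 1.81 against 216.5 ± 3.41 (SD, n = 2), or 143% of control. The log2 fold change of 0.51 (SE 0.036) passed the adjusted p threshold and lay just under 1.5-fold, and it ran from 0.50 to 0.57 over all other settings, again always under 1.5-fold.

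The partners of SEL1L were examined as a list of 11 genes of ER folding and disposal, all tested. At the adjusted p alone 7 were higher, 3 lower and 1 neither, and 0 were called at 1.5-fold in either direction. In percent, 63.6% were higher and 27.3% lower at the adjusted p alone, where all tested genes gave 26.8% and 25.8%, and the shares called at 1.5-fold over all genes were 8.88% and 7.25%. The median log2 fold change of the list was 0.29. *SEL1L* was among the values known when the list was made, so nothing particular to the list is read from this. *SYVN1*, the ubiquitin ligase that SEL1L anchors, rose from 34.3 ± 1.79 to 50.2 ± 0.435 CPM (SD, n = 2), a log2 fold change of 0.55 (SE 0.058) with an adjusted p of 3.51e-05 in edgeR (quasi-likelihood, Benjamini-Hochberg). *DERL1*, a channel component of the same complex, rose by 0.41 on the log2 scale, and *OS9* and *ERLEC1*, the lectins that hand glycoproteins to SEL1L, rose by 0.29 and 0.35. *UBE2J1*, the ubiquitin-conjugating enzyme, *DERL2* and *CANX*, the chaperone calnexin, rose by 0.33, 0.30 and 0.23. The 3 that fell were *AUP1*, by 0.24, *EDEM1*, a mannosidase, by 0.17, and *CALR*, the soluble relative of calnexin, by 0.13. *DERL3* had 38 to 73 counts per library and a log2 fold change of -0.60 (SE 0.35) that did not pass. The genes of this list thus did not all move one way, and every change that passed the test was under 1.5-fold with all libraries and TMM factors. Without control replicate 1, and also with all libraries at unscaled library sizes, *SYVN1* passed 1.5-fold, at 0.60 on the log2 scale.

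**Figure D2:**
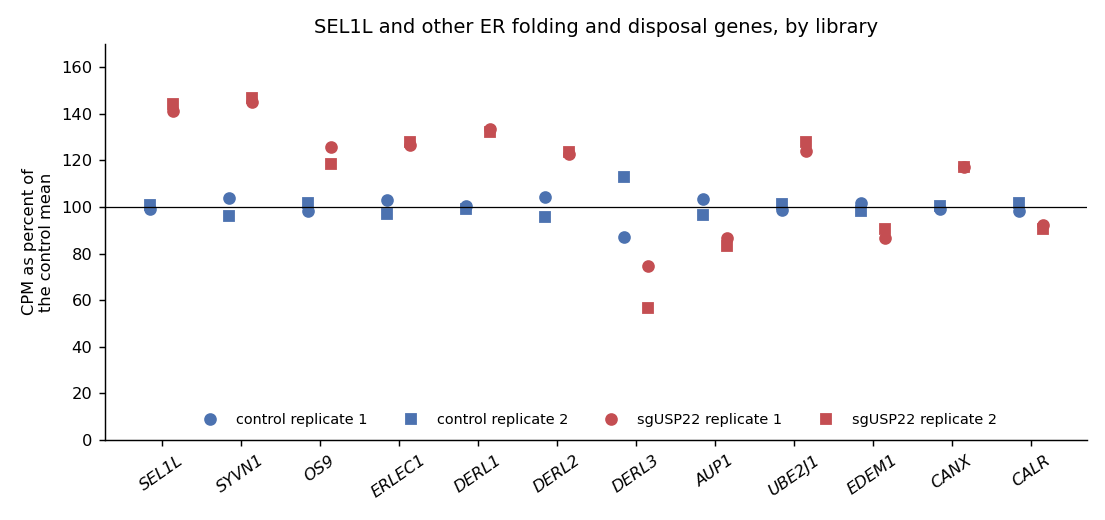
CPM of *SEL1L* and 11 other genes of ER folding and disposal in each library, as a percentage of the gene's control mean (vertical axis), with circles for replicate 1 and squares for replicate 2. *SEL1L* and *SYVN1* reached 143% and 146% of control on average, while *AUP1*, *EDEM1* and *CALR* lay below 100% in both sgUSP22 libraries.

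The promoters of *SEL1L* and *SYVN1* are shown because both genes were higher in the sgUSP22 libraries and work in 1 complex, and because the ER stress response element, CCAAT then 9 bases then CCACG, is the best known sequence of ER gene promoters. They are the 250 bases before the RefSeq gene start (GRCh38.p14, minus strand, chr14:81533854-81534103 for *SEL1L* and chr11:65134520-65134769 for *SYVN1*). Capitals mark CCAAT on either strand in *SEL1L* and CCACG in *SYVN1*.
SEL1L promoter: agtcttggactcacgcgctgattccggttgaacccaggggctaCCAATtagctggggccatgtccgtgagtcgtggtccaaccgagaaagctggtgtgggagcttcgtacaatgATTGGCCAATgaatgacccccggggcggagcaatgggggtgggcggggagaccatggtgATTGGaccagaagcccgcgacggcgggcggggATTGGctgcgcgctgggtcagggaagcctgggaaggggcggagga
SYVN1 promoter: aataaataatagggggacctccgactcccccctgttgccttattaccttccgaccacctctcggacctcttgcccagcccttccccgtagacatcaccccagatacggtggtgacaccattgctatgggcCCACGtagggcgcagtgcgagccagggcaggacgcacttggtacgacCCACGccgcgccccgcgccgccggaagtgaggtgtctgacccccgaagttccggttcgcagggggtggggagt
Counting both strands in windows of 300 bases (250 before and 50 after the start), *SEL1L* held 5 CCAAT, which begin at -207, -136, -131, -77 and -45 from the start, those at -136 and -131 side by side in ATTGGCCAAT. Of 35116 RefSeq promoter windows, 34.6% held CCAAT at least once and 0.359% at least 5 times. The limit of 5 is the count of *SEL1L* itself, so the second share is no finding. In the ER list, *OS9*, which rose, and *CALR*, which fell, each held 4 CCAAT. *SEL1L* also held 1 CCACG, on the opposite strand and left in lower case. *SYVN1* held 0 CCAAT and 2 CCACG, the latter found at least once in 38.1% of windows.

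The full element was in neither promoter, and it was present in 27 of the 35116 windows, or 0.0769%. Those of the ER list that held it were *CANX* and *CALR*, shown with the CCAAT and CCACG parts in capitals (*CANX* chr5:179698778-179698796, plus strand, and *CALR* chr19:12938384-12938402, minus strand).
CANX element: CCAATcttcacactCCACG
CALR element: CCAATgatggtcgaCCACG
Of these carriers of the element, *CANX* rose and *CALR* fell, as given above. A match of letters is a description of the window and not a bound site, and its absence says only that these letters are not there. Windows of *LPL*, *DERL1* and *DERL3* were not used here.

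*ANGPTL4*, the secreted inhibitor of LPL (ENSG00000167772.12, chr19:8363289-8374370, plus strand), was listed at 0 and 16 counts in the control libraries and at 0 in both sgUSP22 libraries. One control library alone held counts, and the gene was not tested. Among 14 further genes that activate, inhibit or process LPL outside the cell, 6 were tested, 5 were at 0 in all libraries and 0 were called at 1.5-fold. The shares called over all tested genes were 8.88% higher and 7.25% lower. The 5 at 0 were *APOC2*, which encodes the activator of LPL, *APOC3*, *APOC4*, *APOA5* and *APOB*, all products of liver cells. *GPIHBP1*, which carries LPL across capillary endothelium, held 0 to 5 counts per library. *ANGPTL8*, which encodes a further inhibitor, held 3 to 5 counts.

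The proprotein convertases cleave LPL and the ANGPTL proteins, and *FURIN*, *PCSK6* and *PCSK7* were the genes of this list above 1 CPM. *PCSK7* rose from 31.0 ± 2.78 to 46.3 ± 0.645 CPM (SD, n = 2), a log2 fold change of 0.58 (SE 0.069) just under 1.5-fold, with an adjusted p of 7.49e-05 in edgeR (quasi-likelihood, Benjamini-Hochberg). Its log2 fold change was 0.68 without control replicate 2 and 0.60 without sgUSP22 replicate 2, then past 1.5-fold. *FURIN* fell from 241.7 ± 6.35 to 201.1 ± 2.598 CPM (SD, n = 2), by 0.27 on the log2 scale. *PCSK6* had a log2 fold change of 0.15 (SE 0.086) that did not pass. *PCSK5* had 16 and 0 control counts and 8 and 21 sgUSP22 counts, with a log2 fold change of 0.77 (SE 1.12) that did not pass. Without control replicate 1, its remaining control count is 0, and it was called higher with a fitted value of 6.85 that depends on the prior count.

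*LRP1*, the large endocytic receptor (ENSG00000123384.14, chr12:57128483-57213361, plus strand), was listed at 11647 and 12491 control counts and at 15876 and 15672 sgUSP22 counts. Its CPM was 195.6 ± 6.51 against 242.2 ± 0.827 (SD, n = 2), with both sgUSP22 libraries above both control libraries. The log2 fold change of 0.31 (SE 0.037) passed the adjusted p threshold but not 1.5-fold. *LRP1* shares 0.54% of its exonic bases with *LRP1-AS* and 0.28% with *STAT6*, both on the other strand.

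Of 21 other receptor and docking genes, 20 were tested, 0 were called higher and 2 (10%) lower, *VLDLR* and *LRP2*. All tested genes gave 8.88% called higher and 7.25% lower. *VLDLR*, which encodes the receptor that holds triglyceride-rich particles beside LPL, fell from 22.4 ± 2.94 to 13.97 ± 0.555 CPM (SD, n = 2), a log2 fold change of -0.68 (SE 0.10) with an adjusted p of 0.000388 in edgeR (quasi-likelihood, Benjamini-Hochberg). Without control replicate 1 its log2 fold change was -0.54, under 1.5-fold. *LRP2*, which encodes megalin, had 66 and 63 control counts and 0 and 11 sgUSP22 counts. It entered the test through its control counts, since its sgUSP22 counts would not pass the low-count filter alone, so its call supports nothing. Its log2 fold change was -3.60 (SE 0.82), with an adjusted p of 0.00431 in edgeR (quasi-likelihood, Benjamini-Hochberg), and over the alternatives run the adjusted p ran from 0.000151 to 0.165, the highest from DESeq2. The log2 fold change was -9.05 without sgUSP22 replicate 2 and -2.62 without sgUSP22 replicate 1. At the adjusted p alone 4 genes of this list (20%) were higher and 6 (30%) lower, where all tested genes gave 26.8% and 25.8%. Among these list genes *LRP6* rose by 0.46, while *SDC1*, a heparan sulphate proteoglycan gene, fell by 0.31 on the log2 scale. The family of *LRP1* relatives thus moved in both directions.

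*PNPLA2*, which encodes adipose triglyceride lipase, the first enzyme of lipid droplet breakdown (ENSG00000177666.17, chr11:818914-825573, plus strand), had 4980 and 4890 control counts and 4143 and 4007 sgUSP22 counts. Its CPM was 80.0 ± 2.33 against 62.6 ± 0.691 (SD, n = 2), and both sgUSP22 libraries lay below both control libraries. The log2 fold change of -0.36 (SE 0.045) passed the adjusted p threshold but not 1.5-fold. It shares 10.5% of its exonic bases with an antisense gene of the annotation that has no row in the table.

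Genes that switch this lipase on and off both rose. *ABHD5*, its co-activator, rose from 22.1 ± 1.26 to 27.8 ± 1.49 CPM (SD, n = 2), by 0.33 on the log2 scale, and *HILPDA*, its inhibitor, rose from 11.3 ± 0.402 to 15.3 ± 0.529 CPM (SD, n = 2), by 0.44. *G0S2*, which encodes a further inhibitor, held 0 to 7 counts. *LIPA*, the lysosomal acid lipase gene, fell from 144.6 ± 3.11 to 108.5 ± 6.16 CPM (SD, n = 2), a log2 fold change of -0.41 with an adjusted p of 4.98e-05 in edgeR (quasi-likelihood, Benjamini-Hochberg). Of 20 genes of intracellular lipolysis and lipid droplets, 13 were tested. Where all tested genes gave 8.88% called higher and 7.25% lower, of these 13, 0 were called higher and 1 (7.69%) lower. That gene, *PNPLA4*, a patatin-domain relative of *PNPLA2*, fell from 23.3 ± 1.87 to 15.4 ± 1.04 CPM (SD, n = 2), a log2 fold change of -0.60 (SE 0.094) with an adjusted p of 0.000443 in edgeR (quasi-likelihood, Benjamini-Hochberg). Without control replicate 1 or sgUSP22 replicate 1 the log2 fold change of *PNPLA4* was -0.52 or -0.54, under 1.5-fold. *LIPE*, the hormone-sensitive lipase gene, held 0 to 10 counts.

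Levels were compared between the members per kilobase of exon (CPM divided by the length of the merged exons of all transcripts). In control libraries *LMF2* at 21.0 ± 0.416 and *PNPLA2* at 20.9 ± 0.607 were highest and overlapped, followed by *SEL1L* at 15.9 ± 0.190, *LRP1* at 9.38 ± 0.312, *LPL* at 2.43 ± 0.141 and *LMF1* at 0.396 ± 0.0103 CPM per kilobase (SD, n = 2). Of these neighbours in order, *LMF2* and *PNPLA2* alone did not differ beyond their spread. *LPL* was thus 1 of the lower members in control cells, above *LMF1* and below *LRP1*. In sgUSP22 libraries *SEL1L* came first at 22.7 ± 0.357, followed by *LMF2* at 19.8 ± 0.415, *PNPLA2* at 16.3 ± 0.180, *LRP1* at 11.6 ± 0.0396 and *LMF1* at 0.286 ± 0.0519 CPM per kilobase (SD, n = 2). *LPL* came last among the members with counts, at 0.00750 ± 0.0106 CPM per kilobase (SD, n = 2).

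Nuclear receptors and their coactivators are the best known regulators of *LPL* transcription, among them the PPAR and LXR families. A list of 17 transcription factors and coactivators of lipid metabolism, which also holds others such as *SREBF1*, *MLXIPL* and *KLF15*, was examined. Of these 17, 15 were tested, 3 (20%) were called higher and 1 (6.67%) lower, where all tested genes gave 8.88% and 7.25%. The list was made with earlier results of these data known, so nothing particular to the list is read from these shares. *NR1H2*, which encodes LXR beta, had 1097 and 1134 control counts and 2527 and 2616 sgUSP22 counts, and rose from 18.1 ± 0.132 to 39.5 ± 1.46 CPM (SD, n = 2). Its log2 fold change was 1.13 (SE 0.069), with an adjusted p of 1.09e-06 in edgeR (quasi-likelihood, Benjamini-Hochberg). *PPARGC1B* and *PPARGC1A*, which encode PPAR coactivators, rose from 13.0 ± 0.180 to 23.8 ± 1.63 and from 9.79 ± 0.296 to 16.4 ± 0.174 CPM (SD, n = 2), by 0.88 (SE 0.088) and 0.75 (SE 0.094) on the log2 scale. *ESRRG*, named after its values were seen because it was the 1 factor called lower, had 32 and 35 control counts and 8 and 0 sgUSP22 counts. Its sgUSP22 counts would not pass the low-count filter without the control libraries, so its call supports nothing. Without sgUSP22 replicate 2 its log2 fold change was -2.14 and was no longer called.

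The PPAR genes themselves differed by less than 1.5-fold and in both directions. *PPARA* rose by 0.40, whereas *PPARD* fell by 0.39 and *PPARG* fell by 0.18 on the log2 scale. *RXRA*, their shared partner, rose by 0.28. *NR1H3*, which encodes LXR alpha, had a log2 fold change of 0.24 (SE 0.11) that did not pass.

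Among 17 genes known as PPAR targets, 9 were tested and 6 were at 0 in all libraries, including *FABP1* and *FABP4*. Of the 9 tested, 1 (11.1%) was called higher and 0 lower, where all tested genes gave 8.88% and 7.25%. The 1 called was *SLC25A20*, the mitochondrial acylcarnitine carrier gene, which rose from 5.80 ± 0.587 to 9.41 ± 0.400 CPM (SD, n = 2), a log2 fold change of 0.70 (SE 0.13) with an adjusted p of 0.00112 in edgeR (quasi-likelihood, Benjamini-Hochberg). *PDK4* fell by 0.37 and *CPT1A* fell by 0.16 on the log2 scale. The targets did not move together, with a median log2 fold change of 0.0099.

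Over the 7 lists, 104 genes were measured, 75 were tested, 18 were at 0 in all libraries and 11 had too few counts. Of the 75, 4 (5.33%) were called higher and 4 (5.33%) lower, under the shares over all genes given above. At the adjusted p alone 25 (33.3%) were higher and 20 (26.7%) lower, and the median log2 fold change was 0.0099. Among the tested list genes and members, *LPL* had the lowest value, -8.26, and the next was *LRP2* at -3.60. Since *LPL* was selected on its values, its place in this order is no finding.

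Markers of cells that make much LPL were measured beside it, and their part in the result was not tested. Of 9 adipocyte markers, 4 were at 0 in all libraries (*ADIPOQ*, *FABP4*, *CIDEC* and *RETN*), and the summed level was 10.5 and 12.4 CPM in control against 13.7 and 13.1 CPM in sgUSP22 libraries, nearly all of it *CFD*. Of 10 macrophage markers, 4 were at 0 throughout (*CD163*, *MARCO*, *TYROBP* and *LYZ*), while *CD68* and *CSF1R* were called lower, and the summed level was 76.7 and 77.0 against 48.0 and 45.1 CPM. *CD68* made up most of that sum, falling from 73.8 to 45.4 CPM on average. Of 9 muscle markers, 3 were at 0 throughout and 1, *ACTC1*, was called lower, with sums of 13.54 and 15.02 against 14.4 and 14.7 CPM. *PTPRC*, *CD14*, *MRC1* and *AIF1* held 0 to 13 counts per library and were not tested. The lower macrophage sum in the libraries with little *LPL* thus describes mostly *CD68*. The adipocyte and muscle sums differed little, but in muscle *ACTC1* fell by 0.89 and *TTN* rose by 0.41 on the log2 scale. For comparison, 8.88% of all tested genes were called higher and 7.25% lower.

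Markers of cells that border on LPL were also listed. Of 9 endothelial markers, *KDR* and *CLDN5* were at 0 throughout, *ERG* and *EGFL7* were called lower, and the summed level was 21.6 and 21.8 against 12.7 and 12.0 CPM. Of 9 fibroblast markers, *DCN* and *LUM* were called higher, by 2.995 and 1.504 on the log2 scale, *PDGFRB* and *ACTA2* were called lower, by 0.98 and 0.91, and *PDGFRA* was at 0. The fibroblast sum was 658 and 653 against 907 and 908 CPM. The summed hepatocyte markers, nearly all keratins, were 1772 and 1812 against 1385 and 1327 CPM, with 3 of 4 tested lower at the adjusted p alone. Over all tested genes 8.88% were called higher and 7.25% lower, and 25.8% were lower at the adjusted p alone. The part of these markers in the *LPL* difference was not tested.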

How the data were processed

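Gene counts of 4 libraries were used as the authors deposited them: whole-number counts per gene, not normalised. Per the labels and the study's methods, the authors aligned reads to hg38 with HISAT2 2.2.1, sorted them with Samtools, derived gene counts with StringTie 2.2.1, which computes them from coverage, and compared groups with DESeq2 1.34.0. The annotation, strand setting and read length are not given in the sources used here. Each column was assigned to its group and replicate by its name.

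All 28278 genes entered 1 fit of the 2 groups in R 4.3.3 with edgeR 4.0.16 (TMM factors, filterByExpr with a minimum count of 10, glmQLFit, glmQLFTest, Benjamini-Hochberg adjustment over 15150 genes). A call needed an adjusted p below 0.05 with a change of 1.5-fold or more. The SE was taken as the size of the log2 fold change over the square root of F. The alternatives were to use DESeq2 1.42.0 (independent filtering at 0.1), RLE factors or unscaled library sizes, to drop the low-count filter or raise it to a mean of 50, to add a replicate block, to drop the fold threshold, and to leave out each library. The procedures were tested on simulated data. Positions, exons and overlaps came from GENCODE 44, to which 25763 symbols matched, and promoter windows from RefSeq. The 2 libraries of a group differed by more than sampling noise (chi-square averaged over genes, 8.11 in control and 8.51 in sgUSP22).

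The members and lists were chosen with earlier results of these data known. Named by rule were the members, *USP22*, up to 4 called genes per list with at least 1 CPM in a group, the nearest tested gene on each side of *LPL* and the 3 genes most like it. Other genes are named as examples of their list, chosen after their values were seen. A few genes of the rule and lists are counted but not reported here by name.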

Additional observations from a re-analysis of the deposited data

How the results depend on the processing

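The log2 fold change of *LPL* ran from -8.35 to -8.20 outside the fits that left out an sgUSP22 library; since its values selected it, this is no sign of stability. Without the fold threshold, the members counted 2 higher and 2 lower, and the listed genes 25 higher and 20 lower. With a mean of at least 50 counts, 2 listed genes were called lower instead of 4, since *LRP2* and *ESRRG* then fall under the filter. Leaving out each library gave 4 to 6 listed genes called higher and 2 to 4 lower (*PCSK5* was called higher without control replicate 1), and 0 members called higher and 1 to 2 lower. The second member was *ANGPTL4* without control replicate 1, where the remaining control library is the one with counts, and *LMF1* without sgUSP22 replicate 1. With library size alone, 6 listed genes were called higher and 3 lower, as *SYVN1* and *PCSK7* passed 1.5-fold and *PNPLA4* did not; that scaling raised the median of all genes by 0.052. DESeq2 gave 4 and 3 listed genes, losing *LRP2*, and no low-count filter gave 4 and 3, losing *ESRRG*; the cause of these losses was not tested.

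The replicate block gave 4 listed genes called higher and 4 lower, and 0 and 1 members, as without it. Deviations of same-numbered libraries correlated at 0.042, so no pairing by number was seen. With 2 libraries per group this cannot show whether same-numbered libraries shared a culture or a run. *INTS10* lost the adjusted p threshold under the replicate block (0.0508), and *ATP6V1B2* passed it (0.0352) in edgeR, and over all alternatives their adjusted p ran from 0.0300 to 0.252 and from 0.0150 to 0.525. No result reversed under the alternatives run. Of 113 values under other settings, 105 kept both their sign and their side of the adjusted p threshold, as did 70 of 76 with 1 library left out. Counts near 0 limit *LPL*, *LRP2*, *ESRRG*, *PCSK5* and *ANGPTL4*.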
